A study of Mus musculus with 4 samples.

Results

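Complement is a cascade of blood and tissue proteins that marks debris, microbes and synapses for removal and attracts phagocytes. The classical route starts when C1q, a molecule built from 3 chains, binds a target and leads to cleavage of C4 and C2. The alternative route is carried by factor B. All routes meet at the cleavage of C3, whose fragments tag the target for the integrin CR3 and release the small signal C3a, while C5 releases C5a. In the central nervous system microglia are the best known source of C1q, and C1q with C3 and CR3 is known for the removal of synapses and debris.

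Described here are 9 mouse genes of this cascade, taken by symbol from the 31053 genes of each expression matrix. The components are C1qa, C1qb and C1qc, which encode the 3 chains of C1q, C3, C4b, which encodes C4, and Cfb, which encodes factor B. The receptors are C3ar1 for C3a, C5ar1 for C5a and Itgam, the alpha chain of CR3 (CD11b). They were read in immune cells of the spinal cord of C57BL/6 mice aged 3 months, of both sexes, sorted for CD45 and sequenced on the 10x Chromium platform in 4 libraries. In spinal cord injury (SCI) mice the cord was contused at a thoracic segment after laminectomy, and cells were taken at 3 and 14 days post-injury (dpi). In sham mice the operation was made without contusion (time point 0). Actinomycin D (ActD), a transcription inhibitor, was added during the preparation of 1 sham library and, by the methods, of both SCI libraries, and the other sham library was made by the standard dissociation, so the ActD sham is the control for 3 and 14 dpi. Each condition is 1 library. The methods give a total of mice, divided over 3 groups, and the number of animals behind each library is not given in the sources used here, and no difference below can be set against a spread between animals, so no test was made.

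The libraries held 2139 to 9208 cells after filters, with a median of 7471 to 9672 unique molecular identifiers (UMIs, each 1 captured RNA molecule) per cell. Ptprc, which encodes CD45, had a UMI in 84.1 to 94.8% of the cells of a library. Clusters were named per library from marker genes that include no member, and 1.65 to 15.1% of cells stayed without a name. The software version in the file headers was 3.0.1 in the standard sham and at 3 dpi and 3.1.0 in the ActD sham and at 14 dpi. Protocol and version cannot be told apart between the shams, and neither can injury and version between 3 dpi and the ActD sham, nor time and version between 3 and 14 dpi. C1qa, C1qb, C1qc and C4b were lower in both libraries of version 3.0.1 than in both of version 3.1.0, in microglia and in border macrophages. C3ar1 and C5ar1 in microglia were higher in both libraries of version 3.0.1. Immediate early genes summed to 41258 UMIs per 1000000 UMIs (CPM) in microglia of the standard sham and to 834 CPM in those of the ActD sham. Pairs of libraries shared 2 to 25 barcodes among the cells kept, 77 in all. UMIs of a gene were summed over the cells of a class in a library and divided by all UMIs of those cells (CPM). All intervals are 95% intervals, exact Poisson for levels, exact conditional for ratios and exact Clopper-Pearson for shares, and cover counting error only.

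On the mouse genome build GRCm38, C1qa (chr4:136895917-136898803), C1qc (chr4:136889804-136893065) and C1qb (chr4:136880129-136886187) lie side by side on the reverse strand within 18675 bases. C3 lies at chr17:57203970-57228136, and C4b (chr17:34728380-34743882) and Cfb (chr17:34856374-34862518) lie in the same stretch of chromosome 17 as each other. The receptor genes are C3ar1 (chr6:122847138-122856161), C5ar1 (chr7:16246743-16259540) and Itgam (chr7:128062640-128118491), of which Itgam alone among the 9 is on the forward strand. C4b has a near-identical copy, C4a, which is not among the genes of the matrices used here, so its counts are uncertain.

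The sequences before the start sites of C1qb and C3 are shown because these genes stand for the patterns described below, the C1q that nearly all microglia carried and the C3 that differed between conditions. They are the 250 bases 5′ of the RefSeq start on GRCm38.p6, on the reverse strand, at chr4:136886201-136886450 and chr17:57228137-57228386, and capitals mark the motif matches.
C1qb: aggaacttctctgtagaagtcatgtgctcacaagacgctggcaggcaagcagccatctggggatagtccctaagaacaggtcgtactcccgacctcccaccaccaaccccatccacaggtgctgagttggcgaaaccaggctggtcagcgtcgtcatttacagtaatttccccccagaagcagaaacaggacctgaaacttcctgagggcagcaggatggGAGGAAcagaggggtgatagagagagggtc
C3: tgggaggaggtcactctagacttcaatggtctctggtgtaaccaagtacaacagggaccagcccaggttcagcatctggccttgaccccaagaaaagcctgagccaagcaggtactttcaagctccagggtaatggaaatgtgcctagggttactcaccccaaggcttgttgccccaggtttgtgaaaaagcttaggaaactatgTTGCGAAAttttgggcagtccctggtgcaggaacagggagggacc
Searched on both strands were GAGGAA, the core bound by the myeloid factor PU.1, TTGCNNAA, a C/EBP motif, and, by consensus, the interferon-stimulated response element and NF-kB. The C1qb stretch held 1 match, to GAGGAA, which 23.3% of 32841 mouse promoters of the same length also held. The C3 stretch held 1 match, to TTGCNNAA, which 9.57% of promoters held. The other motifs were held by 2.98% (interferon-stimulated response element) and 7.25% (NF-kB) of promoters and had no match in either stretch.

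**Figure D1:**
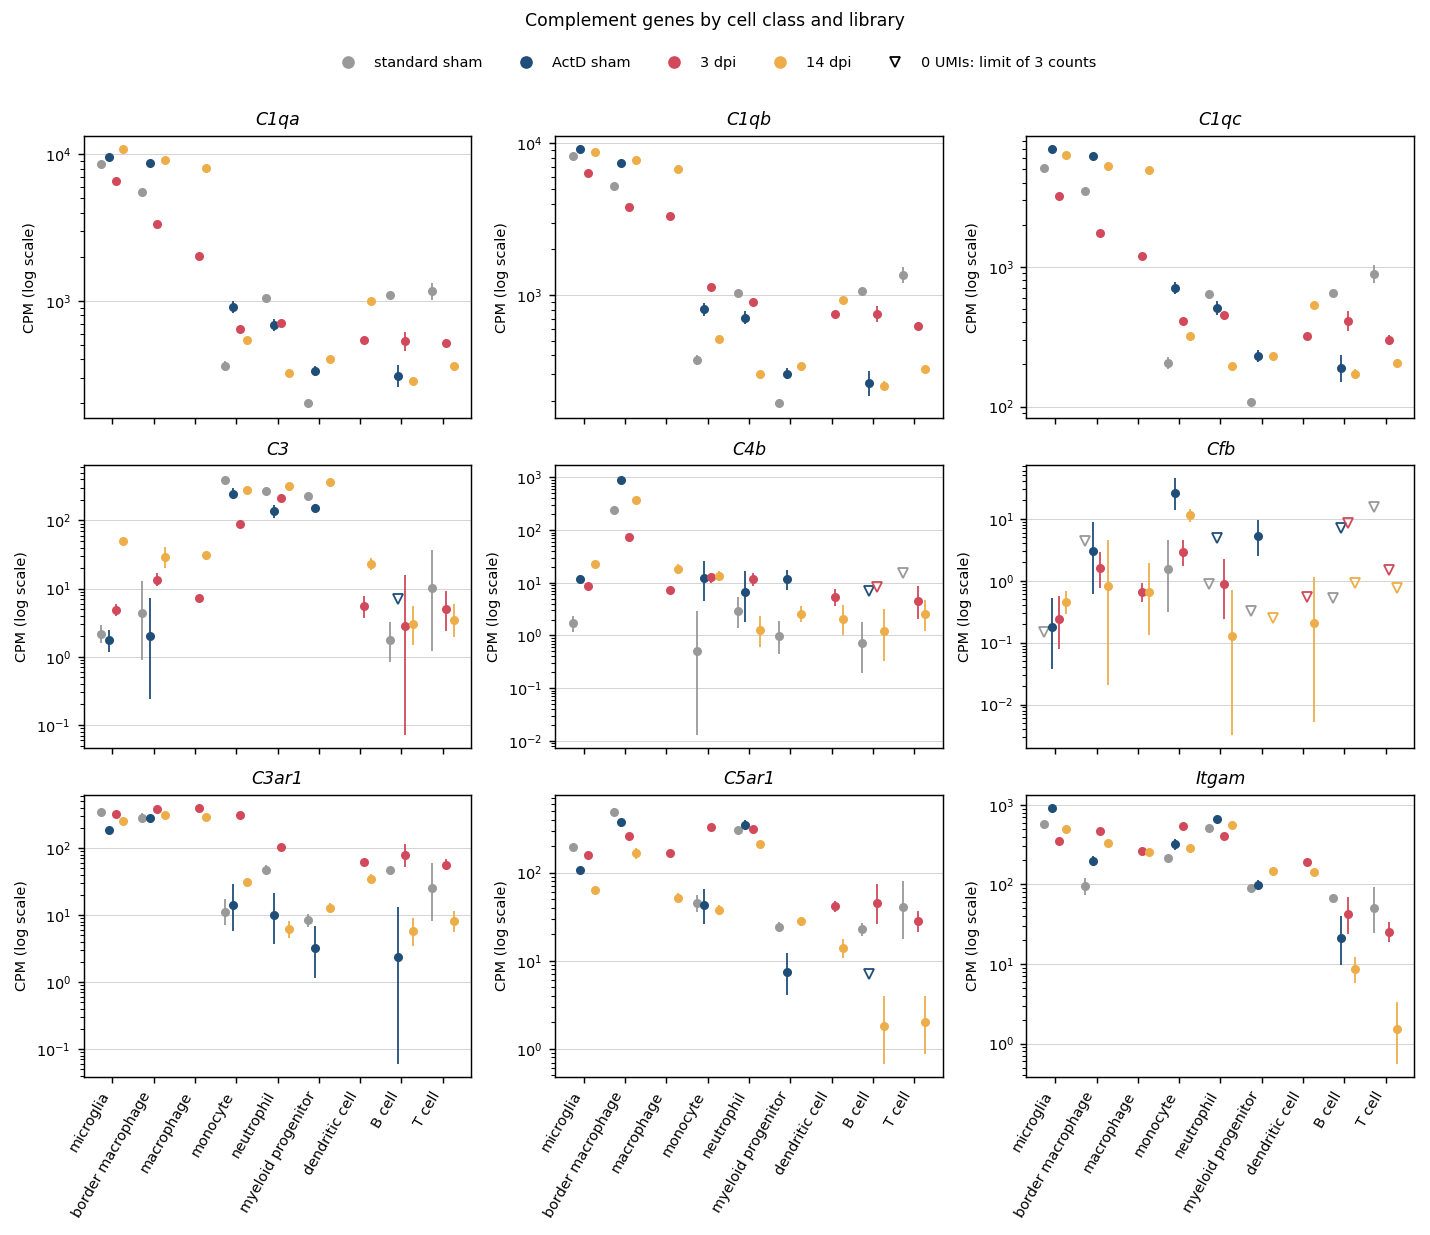
Level of each of the 9 genes (CPM, log scale) in each cell class (x axis) of the 4 libraries (colors), with 95% Poisson intervals for counting error as bars; open triangles stand at the limit of 3 counts where no UMI was found. The C1q genes sat highest in microglia and macrophages, C3 in monocytes, neutrophils and myeloid progenitors, C4b in border macrophages and Cfb in monocytes.

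C1q was read from microglia and macrophages. The 3 C1q genes together gave 21867 CPM in microglia of the standard sham, 25644 CPM in the ActD sham, 16151 CPM at 3 dpi and 25893 CPM at 14 dpi. This level was lowest at 3 dpi and about the same in the ActD sham and at 14 dpi, where the difference on the log2 scale was 0.01 (0.01 to 0.02). At 3 dpi it was lower by a log2 ratio of -0.67 (-0.67 to -0.66) than in the ActD sham. The microglia markers summed to 25868 CPM in microglia of the ActD sham and 5912 CPM in those of 3 dpi, and the macrophage markers to 76.3 and 6795 CPM. The part of these markers in this and the other differences of microglia at 3 dpi was not tested. The median log2 ratio of all genes tested in microglia against the ActD sham was -0.52 at 3 dpi, -0.50 at 14 dpi and -0.54 in the standard sham, so each ratio is also given with TMM factors, which take out most of such a shift. With TMM factors the C1q difference at 3 dpi was -0.17 and that at 14 dpi 0.51.

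The chains did not move by the same amount. C1qa, the A chain, measured 8537, 9625, 6599 and 10820 CPM in microglia of the standard sham, the ActD sham, 3 dpi and 14 dpi. C1qb, the B chain, measured 8229, 9091, 6338 and 8756 CPM in the same order. C1qc, the C chain, measured 5101, 6928, 3214 and 6317 CPM. All were lowest at 3 dpi. Against the ActD sham the log2 ratios at 3 dpi were -0.54 (C1qa), -0.52 (C1qb) and -1.11 (C1qc), and with TMM factors -0.04, -0.02 and -0.61. At 14 dpi they were 0.17, -0.05 and -0.13, and the signs of C1qb and C1qc turned with TMM factors (0.44 and 0.37). From 3 to 14 dpi the ratios were 0.71, 0.47 and 0.97, and the shift of all genes was small there (median 0.02). In the standard sham they were -0.17, -0.14 and -0.44 against the ActD sham, and all 3 signs turned with TMM factors (0.35, 0.38 and 0.09).

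Nearly every microglial cell carried C1q at equal depth. After each cell was thinned to 1000 UMIs, 98.4% of microglia in the standard sham, 99.3% in the ActD sham, 88.5% at 3 dpi and 98.2% at 14 dpi had UMIs of all 3 genes. Among B cells, which should lack C1q, the shares were 9.80%, 1.56%, 6.87% and 3.07%. T cells gave 11.1% in the standard sham, 6.93% at 3 dpi and 1.60% at 14 dpi. These low shares differed between libraries. The C1qa level of microglia was 31.2-fold that of B cells in the ActD sham and 38.1-fold at 14 dpi, but 7.76-fold in the standard sham and 12.4-fold at 3 dpi. In the standard sham, microglia had 1.61 C1q UMIs per UMI of the 10 microglia markers, B cells 1.65, T cells 1.59 and neutrophils 1.60. The ratio of C1q to other microglial transcripts was thus nearly the same in all 4 classes of that library. The match was less close elsewhere, with 0.991 in microglia, 0.805 in B cells and 1.21 in neutrophils of the ActD sham, 2.73, 2.61 and 1.94 at 3 dpi, and 2.25, 2.05 and 2.09 at 14 dpi. C1q in B cells, T cells and neutrophils is read here as background and not as expression.

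Macrophages differed from microglia in how far C1q moved. Cells with markers of border macrophages, which line the meninges and vessels, held 14234 CPM of C1q in the standard sham, 22238 in the ActD sham, 8910 at 3 dpi and 22084 at 14 dpi. Against the ActD sham the 3 dpi value was lower by a log2 ratio of -1.32 (-1.34 to -1.30), or -1.09 with TMM factors. The share with all 3 genes after thinning was 91.4%, 96.7%, 55.2% and 97.2%. Macrophages with injury-related markers such as Arg1 and Gpnmb were named only at 3 dpi (2903 cells) and 14 dpi (288 cells). Their C1q measured 6557 CPM at 3 dpi and 19644 CPM at 14 dpi, a log2 ratio of 1.58 (1.57 to 1.59). All 3 C1q genes were present in 41.5% and 89.6% of these cells after thinning. The macrophages of 14 dpi also held 6035 CPM of the microglia markers, against 946 CPM at 3 dpi, and 6211 CPM of the macrophage markers, against 21437 CPM. The border macrophages held 1915, 3983, 1095 and 6327 CPM of microglia markers in the standard sham, the ActD sham, 3 dpi and 14 dpi. The part of these markers in the C1q difference was not tested.

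The share of C1qb in C1q marked the 3 dpi library. In microglia C1qb made up 37.6%, 35.5%, 39.2% and 33.8% of C1q UMIs in the standard sham, the ActD sham, 3 dpi and 14 dpi. In macrophages it was 50.6% at 3 dpi and 34.2% at 14 dpi, and in monocytes of 3 dpi 51.5%. B cells, T cells and neutrophils of 3 dpi stood between macrophages and microglia, at 44.3%, 43.5% and 43.6%. At 3 dpi macrophages held 48.1% of the library's C1qb and microglia 38.0%, while of C1qa they held 36.9% and 49.4%. In the other 3 libraries microglia held 83.8 to 87.6% of the UMIs of each C1q gene.

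**Figure D2:**
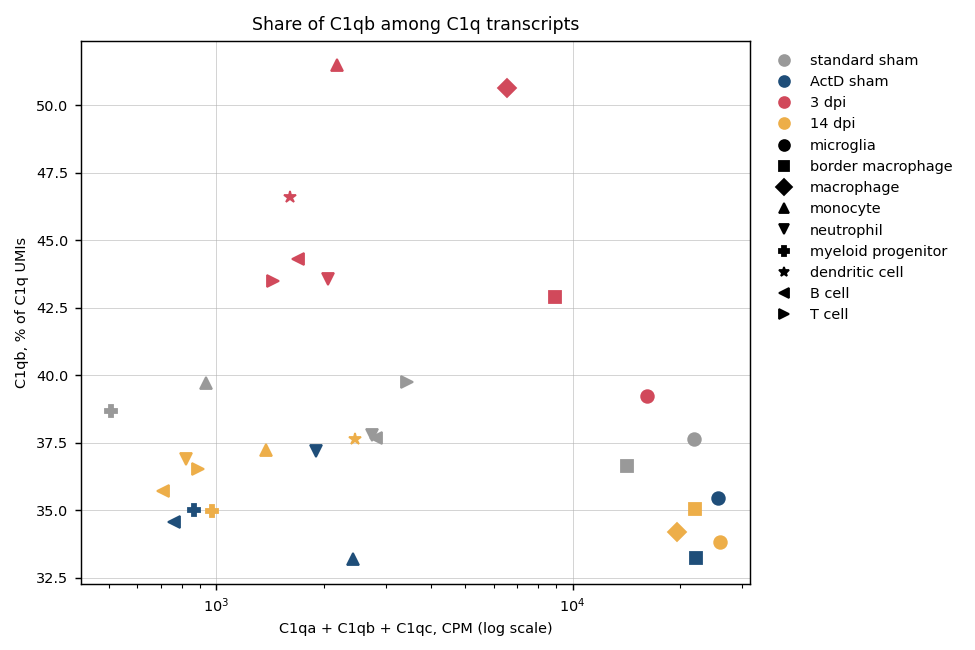
Share of C1qb among C1q UMIs (y axis, %) against the summed level of C1qa, C1qb and C1qc (x axis, CPM, log scale) for each cell class (symbols) and library (colors). Every 3 dpi class lies above the same class of the other libraries, with macrophages at 50.6% and microglia at 39.2%, while microglia and border macrophages of the other libraries lie at the right and below.

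C3, the central component, had the largest log2 ratio of the members in microglia. It had 44 UMIs in microglia of the standard sham (2.19 CPM), 29 in the ActD sham (1.75 CPM), 101 at 3 dpi (4.93 CPM) and 2560 at 14 dpi (50.6 CPM, 48.6 to 52.6). The 14 dpi value stood apart from the other 3. Against the ActD sham the log2 ratio was 4.83 (4.33 to 5.44) at 14 dpi and 1.48 (0.89 to 2.15) at 3 dpi, or 5.33 and 1.98 with TMM factors. The ratio at 14 dpi was higher than that of 99.4% of the 12586 genes tested. After thinning, 0.123%, 0.0617%, 0.218% and 4.24% (3.66 to 4.89) of microglia had a C3 UMI, in the order of libraries above, and 33.3% at 14 dpi without thinning. B cells of 14 dpi gave 0.204% and T cells 0.401% after thinning, with median depths of 3624 and 5140.5 UMIs against 10671.5 in microglia. Neutrophil markers, whose cells carry much C3, summed to 873 CPM in microglia of 14 dpi, 848 in T cells and 701 in B cells. Per 1000 of these UMIs, microglia held 57.9 C3 UMIs, T cells 4.15 and B cells 4.37. The C3 of microglia at 14 dpi was thus well above its level in lymphocytes with as many neutrophil transcripts. At 3 dpi microglia held 4.93 CPM and T cells 5.02 CPM, so C3 in microglia of 3 dpi could not be told from background.

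Every microglial cluster of 14 dpi carried C3. The clusters led by P2ry12 gave 36.5 and 43.5 CPM, that led by Ccl4 gave 45.8, that led by Lpl 52.8, the cycling one led by Cenpf 57.7 and that led by Cxcl10, a chemokine induced by interferon, 88.1 CPM. Clusters of the ActD sham lay between 0 UMIs and 9.39 CPM, and those of 3 dpi between 3.98 and 14.0 CPM. The clusters of 14 dpi did not overlap with those of the other libraries, but they all come from 1 library and are not replicates. The share of all genes with such a gap between clusters was not counted. Microglia of the ActD sham lay mostly in a P2ry12 cluster (1342 of 1629 cells), those of 14 dpi mostly in the Lpl cluster (2475 of 4250) and those of 3 dpi in a cycling cluster led by Top2a (362 of 919) and the Lpl cluster (318). Within the P2ry12 cluster the level was 1.06 CPM in the ActD sham and 36.5 CPM at 14 dpi.

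C3 was also carried by monocytes, neutrophils and myeloid progenitors, with or without injury. Monocytes held 387 CPM in the standard sham, 247 in the ActD sham, 87.7 at 3 dpi and 279 at 14 dpi. Neutrophils held 270, 138, 216 and 317 CPM. Myeloid progenitors held 231 CPM in the standard sham, 155 in the ActD sham and 368 at 14 dpi. The progenitors of the ActD sham were unlike the others, with 1077 CPM of neutrophil markers against 52365 and 112706 CPM in the standard sham and at 14 dpi. The part of these markers in the difference was not tested. In monocytes C3 was lowest at 3 dpi, with a log2 ratio of -1.50 (-1.78 to -1.20) to the ActD sham, which rests on 28 monocytes. Macrophages held 7.20 CPM at 3 dpi and 30.7 at 14 dpi, a log2 ratio of 2.10 (1.80 to 2.38). Border macrophages held 4.39, 2.01, 13.5 and 29.1 CPM, from 3, 2, 85 and 36 UMIs. Border macrophages with each library clustered alone gave a log2 ratio of -0.18 for 3 dpi over the ActD sham, where 2.44 was found otherwise. B cells held 1.76, 2.83 and 3.06 CPM in the standard sham, at 3 dpi and at 14 dpi, and 0 UMIs in the ActD sham, which allows up to 7.10 CPM.

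Neutrophil clusters differed in C3. The cluster led by Ltf, a granule gene of immature neutrophils, gave 376 CPM in the standard sham and 421 CPM at 14 dpi, where the cluster led by Retnlg gave 161 and 160 CPM. The matching granule-gene cluster of 3 dpi had 23 cells and gave 155 CPM. In the ActD sham the 47 cells of that cluster, led by Camp, had no name and gave 481 CPM (441 to 524), which was 39.0% of the C3 UMIs of the library. With each library clustered alone, the neutrophil log2 ratio of 14 dpi to the ActD sham turned from 1.198 to -0.26. The neutrophils of 3 dpi lay mostly in a cluster led by Il1b (1528 of 1833 cells), had a median of 2287 UMIs against 5093 to 10491 in the other libraries, and held 55534 CPM of the neutrophil markers against 307262 to 370731.

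**Figure D3:**
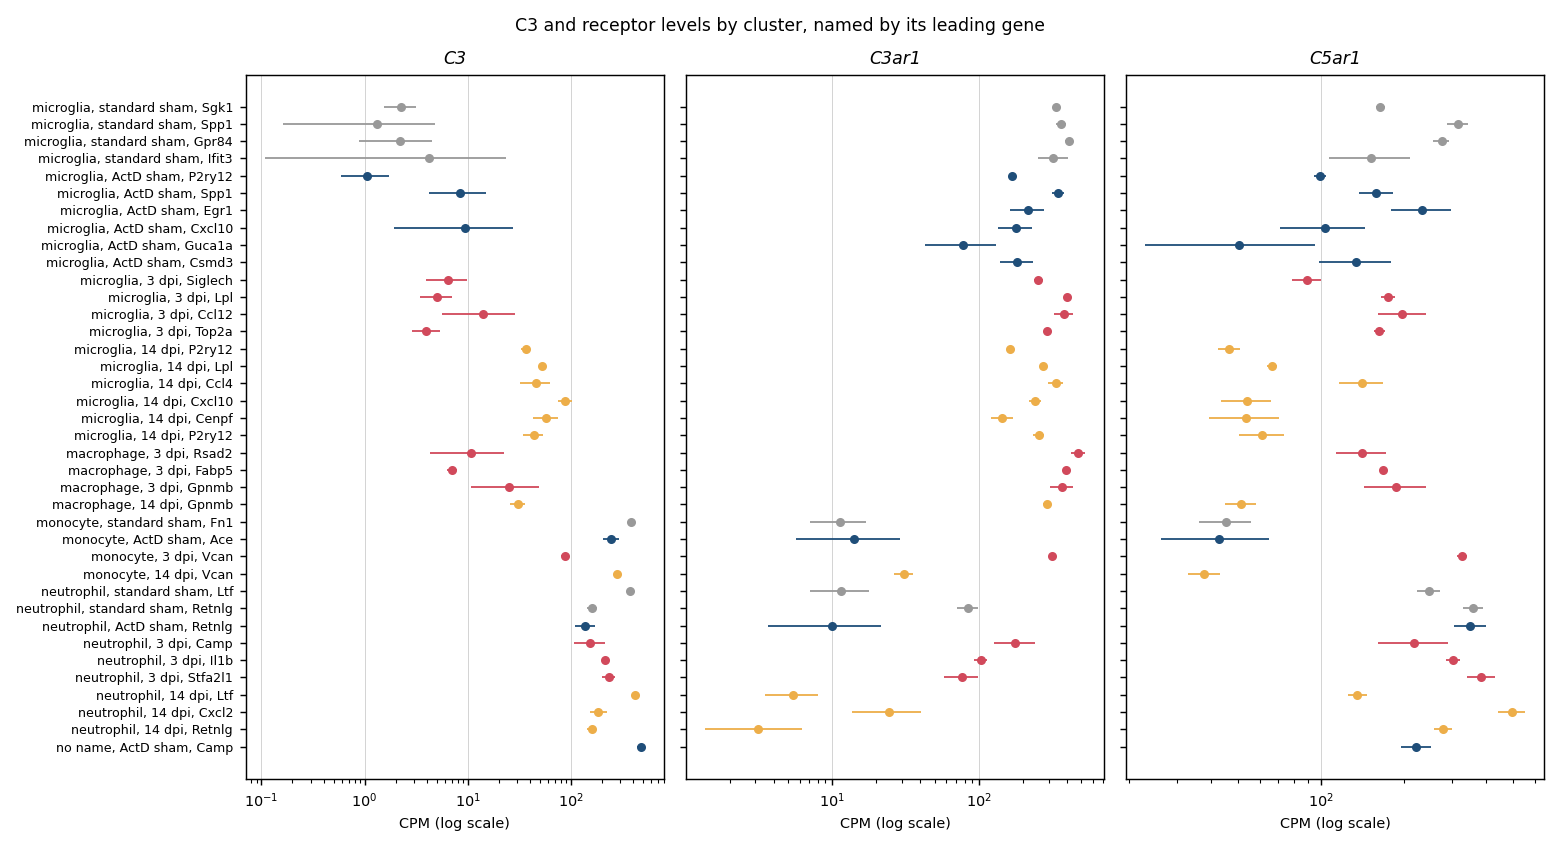
Levels of C3, C3ar1 and C5ar1 (CPM, log scale, 95% Poisson intervals) in each cluster of microglia, macrophages, monocytes and neutrophils, 1 line per cluster and library, named by its leading gene, with colors for libraries; clusters with no UMI of the gene have no point. All microglial clusters of 14 dpi lie at 36.5 CPM of C3 or more, and those of the other libraries at 14.0 CPM or less. Clusters of 1 library are not replicates.

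C4b, which encodes C4, marked border macrophages. It measured 244 CPM in the standard sham (167 UMIs), 904 in the ActD sham (900 UMIs), 75.3 at 3 dpi (474 UMIs) and 368 at 14 dpi (455 UMIs). It was highest in the ActD sham and lowest at 3 dpi. The log2 ratios to the ActD sham were -1.88 (-2.14 to -1.65) in the standard sham, -3.59 (-3.75 to -3.42) at 3 dpi and -1.30 (-1.46 to -1.13) at 14 dpi. Of the 10133 genes tested, 1.14% had a lower ratio at 3 dpi. Border macrophages of 3 dpi included 77 cycling cells at 25.6 CPM and 329 cells of the same cluster as in the other libraries at 101 CPM. After thinning, 13.3%, 42.4%, 6.90% and 23.6% of border macrophages had a C4b UMI, and the highest share among B cells was 0.409%, at 14 dpi. The border macrophage markers summed to 7022, 10945, 9179 and 4954 CPM in the 4 libraries, and the macrophage markers in the same cells to 1531, 1104, 14360 and 2207 CPM. Macrophages of 3 dpi held 7.18 CPM of C4b. The part of these markers in the difference was not tested.

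In microglia C4b was low and highest at 14 dpi. It measured 1.70 CPM in the standard sham, 12.05 in the ActD sham, 8.59 at 3 dpi and 23.2 at 14 dpi. The log2 ratio to the ActD sham was 0.95 (0.73 to 1.17) at 14 dpi, 1.44 with TMM factors. At 3 dpi it was -0.49, which became 0.01 with TMM factors. In the standard sham it was -2.81 (-3.40 to -2.30), from 34 against 200 UMIs. At 14 dpi the cluster led by Cxcl10 held 81.7 CPM and the other microglial clusters 5.55 to 35.2 CPM. Microglia, 46.2% of the cells at 14 dpi, held 57.8% of the C4b UMIs there and border macrophages 22.4%. In the ActD sham microglia were 76.2% of the cells and held 14.8%, and border macrophages held 66.5%. Endothelial cells, found at 14 dpi, held 310 CPM.

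Cfb, factor B of the alternative route, was near the limit of detection. The libraries held 3, 30, 71 and 100 UMIs of it in all. Monocytes held 1.54 CPM in the standard sham (3 UMIs), 26.3 in the ActD sham (13 UMIs), 2.89 at 3 dpi (19 UMIs) and 11.5 at 14 dpi (68 UMIs). They held 100%, 43.3%, 26.8% and 68.0% of the Cfb UMIs. Microglia had 0, 3, 5 and 23 UMIs, and the log2 ratio of 14 dpi to the ActD sham, 1.14, had an interval from -0.40 to 3.71. A difference in microglia was not detectable at this depth. No B or T cell had a UMI, which allows up to 0.529 CPM in B cells of the standard sham.

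**Figure D4:**
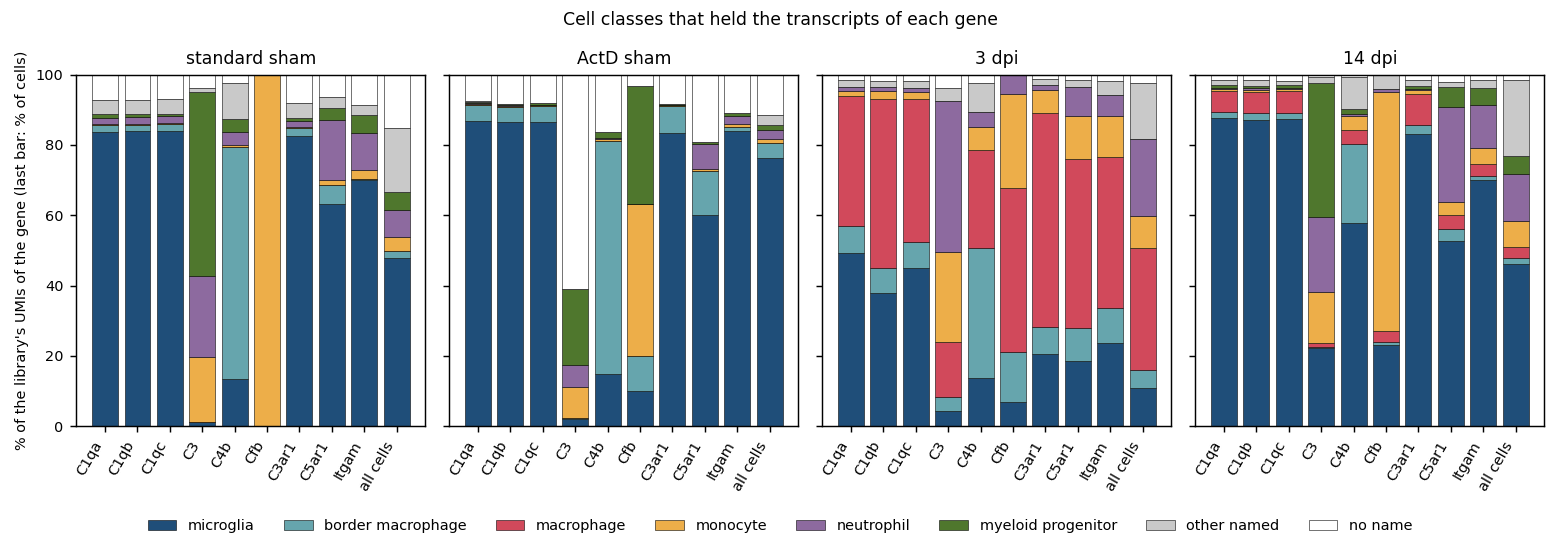
Share of each gene's UMIs (y axis, %) held by each cell class (colors) in the 4 libraries, with the share of cells in the last bar of each panel. Microglia hold most C1q except at 3 dpi, border macrophages 66.5% of C4b in the ActD sham, and monocytes 68.0% of Cfb at 14 dpi.

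C3ar1, the receptor of C3a, was carried by microglia and macrophages in every library. Microglia held 348 CPM in the standard sham, 183 in the ActD sham, 323 at 3 dpi and 250 at 14 dpi. Border macrophages held 285, 277, 387 and 313 CPM. Macrophages held 393 CPM at 3 dpi and 290 at 14 dpi. In microglia the ActD sham was the lowest, with log2 ratios of 0.93 for the standard sham, 0.82 for 3 dpi and 0.45 for 14 dpi, or 1.46, 1.33 and 0.95 with TMM factors. Border macrophages differed less, by 0.04 to 0.48 against the ActD sham. Among microglial clusters of 14 dpi the level went from 144 CPM in cycling cells and 163 in the larger P2ry12 cluster to 334 CPM in the Ccl4 cluster.

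Monocytes of 3 dpi stood apart in both anaphylatoxin receptors. Their C3ar1 level was 315 CPM, against 11.3 in the standard sham, 14.2 in the ActD sham and 30.8 at 14 dpi. The log2 ratio of 3 dpi to the ActD sham was 4.38 (3.43 to 5.79) and that of 14 to 3 dpi -3.35 (-3.58 to -3.13). C5ar1, the receptor of C5a, measured 45.1, 42.5, 326 and 37.6 CPM in monocytes, with log2 ratios of 2.90 (2.32 to 3.63) and -3.11 (-3.32 to -2.91). After thinning, 44.2% of monocytes of 3 dpi had a UMI of at least 1 of these receptors, against 3.57 to 5.42% in the other libraries. B cells of 3 dpi gave 15.3%. The monocytes of 3 dpi held 20528 CPM of the macrophage markers and 5455 CPM of the monocyte markers, against 3759 to 8101 and 8792 to 12753 in the other libraries, and the part of these markers in the difference was not tested. The ActD sham had 28 monocytes, but the standard sham had 203 and 14 dpi had 704.

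C5ar1 was found in neutrophils of every library. They held 302 CPM in the standard sham, 350 in the ActD sham, 312 at 3 dpi and 211 at 14 dpi. The shares with a UMI after thinning were 24.5%, 27.3%, 26.5% and 22.9%, and in B cells 1.38%, 0 of 64 cells (which allows up to 4.69%), 7.63% and 0 of 489 cells (up to 0.613%). Neutrophils thus had C5ar1 above the B cell share in each library. C3ar1 in neutrophils measured 47.2, 9.95, 102 and 6.18 CPM. B cells of the standard sham held 46.9 CPM, so C3ar1 in neutrophils of that library could not be told from background. In the ActD sham B cells held 2.37 CPM (0.06 to 13.2), and at 14 dpi 5.82 CPM (3.50 to 9.09). The neutrophil intervals, 3.65 to 21.6 and 4.55 to 8.19 CPM, overlapped these. C3ar1 in neutrophils of those libraries could thus not be told from background either. At 3 dpi B cells held 79.3 CPM, and the shares after thinning were 9.97% of neutrophils and 8.40% of B cells, with overlapping intervals (8.63 to 11.4% and 4.27 to 14.5%), so C3ar1 in neutrophils of 3 dpi, with a log2 ratio of 3.25 to the ActD sham, could not be told from background. Within neutrophils of 14 dpi C5ar1 was highest in the cluster led by Cxcl2 (495 CPM), with 279 CPM in the Retnlg and 136 CPM in the Ltf cluster, and in the standard sham the Retnlg cluster held 358 and the Ltf cluster 247 CPM.

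C5ar1 was lower at 14 dpi in microglia and macrophages. Microglia held 193 CPM in the standard sham, 107 in the ActD sham, 157 at 3 dpi and 63.0 at 14 dpi. The log2 ratio of 14 to 3 dpi was -1.31 (-1.39 to -1.24), and that of 14 dpi to the ActD sham -0.76, or -0.26 with TMM factors. Macrophages held 168 CPM at 3 dpi and 51.1 at 14 dpi, a log2 ratio of -1.71 (-1.91 to -1.53). Border macrophages held 493, 371, 258 and 167 CPM. Their log2 ratios to the ActD sham were 0.41, -0.52 and -1.15 (-1.41 to -0.90 at 14 dpi). Over these values C3ar1 stayed within a fold of 2 between 3 and 14 dpi in all 3 classes, while C5ar1 differed by more than that in microglia and macrophages.

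Dendritic cells, which present antigen and were named at 3 dpi (616 cells) and 14 dpi (486 cells), held C1q and the anaphylatoxin receptors at levels near those of B cells at 3 dpi. The C1q sum was 1611 CPM at 3 dpi, close to the 1695 CPM of B cells, and reached 2445 CPM at 14 dpi, where B cells held 709 CPM. The microglia markers summed to 1442 CPM in dendritic cells of 14 dpi and 346 CPM in B cells, and C1q UMIs per UMI of these markers were 1.70 and 2.05, so C1q in dendritic cells is not read as expression. C3ar1 measured 62.4 and 35.1 CPM and C5ar1 41.3 and 14.0 CPM, and B cells of 3 dpi held 79.3 CPM (52.7 to 115) and 45.3 CPM (25.9 to 73.6), which did not differ from the dendritic cells of 3 dpi beyond counting error. At 14 dpi B cells held 5.82 and 1.84 CPM, below the dendritic cells. Microglia of 14 dpi held 250 and 63.0 CPM. The part of the microglia markers above in the receptor levels of dendritic cells was not tested. C3 measured 5.54 CPM at 3 dpi and 23.0 CPM at 14 dpi, a log2 ratio of 2.04 (1.46 to 2.69). With each library clustered alone, the C5ar1 ratio of 14 to 3 dpi turned from -1.55 to 0.28.

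Itgam, the alpha chain of CR3, was shared by microglia, neutrophils and monocytes. Microglia held 575 CPM in the standard sham, 911 in the ActD sham, 354 at 3 dpi and 495 at 14 dpi. Neutrophils held 507, 658, 407 and 552 CPM. Monocytes held 213, 318, 541 and 286 CPM. In microglia every library was below the ActD sham, with log2 ratios of -0.67, -1.37 (-1.41 to -1.32) and -0.88, or -0.14, -0.86 and -0.38 with TMM factors. Border macrophages went the other way at 3 dpi, from 197 to 476 CPM (log2 ratio 1.27, 1.06 to 1.49). Their macrophage markers summed to 1104 CPM in the ActD sham and 14360 CPM at 3 dpi. Macrophages held 266 and 257 CPM at 3 and 14 dpi. Cells in which Itgam was found beside a lymphocyte gene such as Cd3e or Klrb1c had been removed, as in the study, which lowers Itgam in lymphocytes by construction. With those cells kept, B cells went from 68.3 to 158 CPM in the standard sham, from 21.3 to 119 in the ActD sham, from 42.5 to 180 at 3 dpi and from 8.57 to 71.7 at 14 dpi, and NK cells of 14 dpi, which are known to carry CD11b, from 14.7 to 193 CPM.

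**Figure D5:**
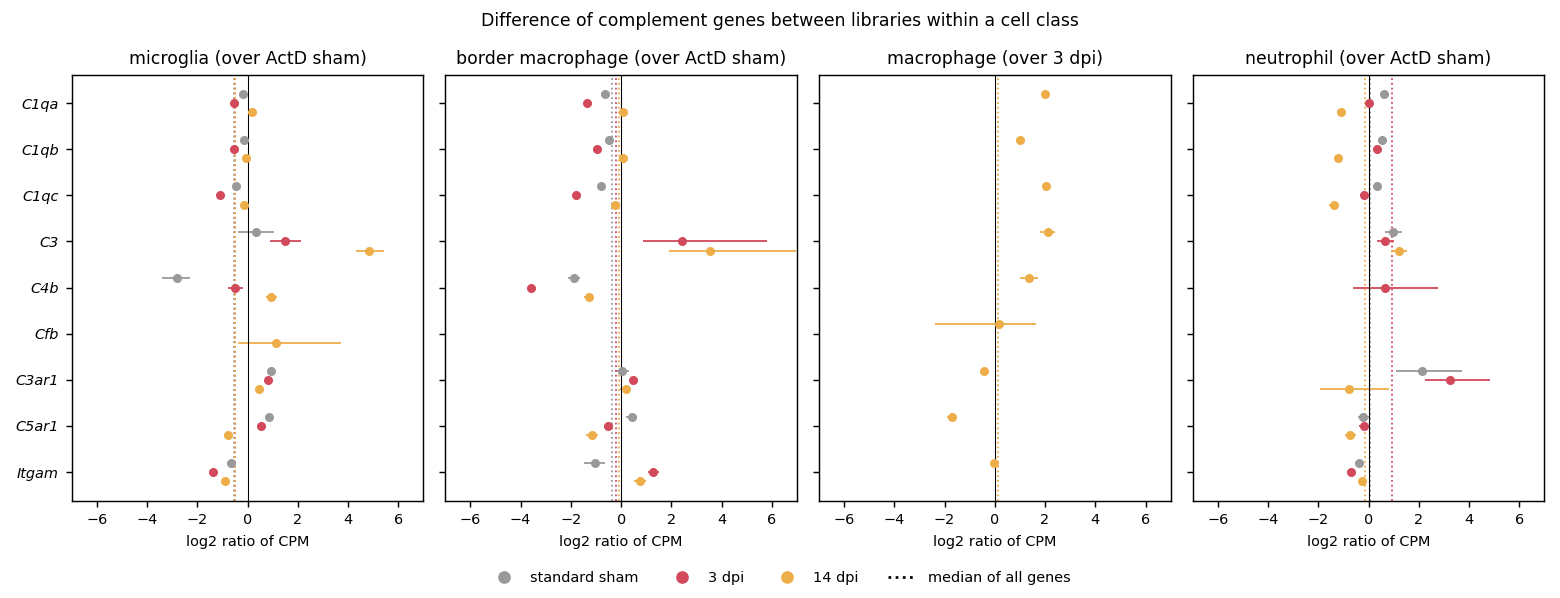
Log2 ratio of CPM (x axis) of each gene between libraries within microglia, border macrophages and neutrophils (each over the ActD sham) and macrophages (14 over 3 dpi), colors for libraries, bars for 95% counting intervals and dotted lines for the median of all genes tested. C3 in microglia of 14 dpi lies at 4.83, C4b in border macrophages of 3 dpi at -3.59, and genes with fewer than 20 UMIs in a pair have no point.

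Members past a fold of 2 in microglia are given beside the share of all genes, which was taken without TMM factors only. Of 8 members with at least 20 UMIs in the pair at 3 dpi, C3 was higher and C1qc and Itgam were lower by more than 2-fold than in the ActD sham, and of all genes 15.2% were higher and 32.7% lower by as much. This C3, at 4.93 CPM against 5.02 CPM in T cells of 3 dpi, could not be told from background. With TMM factors 3 members were higher, C3 (1.98), C3ar1 (1.33) and C5ar1 (1.06), and none was lower, with no share of all genes to set beside them. At 14 dpi C3 and Cfb of 9 members were past that fold upward and none downward (background 8.0% and 18%), of which Cfb, with 23 against 3 UMIs and an interval from -0.40 to 3.71, is not shown to differ. In the standard sham C4b of 8 members was lower and none higher (21.9% and 7.16%), but with TMM factors C3ar1 (1.46) and C5ar1 (1.39) were higher. From 3 to 14 dpi C3 and C4b were higher and C5ar1 was lower (11.3% and 14.5%). In macrophages all 3 C1q genes, C3 and C4b of 9 members were higher and C5ar1 was lower at 14 than at 3 dpi, against 15.9% and 11.6% of all genes. The median over the members was 1.02 there and 0.14 over all genes. In border macrophages of 3 dpi C3 and Itgam of 8 members were higher and C1qa, C1qc and C4b lower than in the ActD sham (14.5% and 21.0%). In monocytes of 3 dpi C3ar1 and C5ar1 of 9 members were higher and C3 and Cfb lower (10.5% and 26.1%). The 28 monocytes of the ActD sham were led by Ace and those of 3 and 14 dpi by Vcan, and markers of non-classical monocytes summed to 2119 CPM in the ActD sham, 426 at 3 dpi and 1240 at 14 dpi, whose part was not tested. In neutrophils of 14 dpi C3 of 7 members was higher and the C1q genes, read as background above, lower (10.1% and 12.2%), but the signs of all 4 turned with each library clustered alone and those of the C1q genes also with doublets kept.

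The remaining myeloid comparisons gave these counts past a fold of 2, each beside the share of all genes. In border macrophages C4b and Itgam of 7 members were lower in the standard than in the ActD sham and none higher (background 15.5% lower and 5.78% higher), and at 14 dpi C3 of 8 members was higher and C4b and C5ar1 lower than in the ActD sham (4.65% and 5.43%). From 3 to 14 dpi the C1q genes, C3 and C4b of 8 members were higher there and none lower (15.7% and 11.6%), 5 members, of which 3 stayed past that fold with TMM factors. In dendritic cells C3 of 8 members was higher and C4b and C5ar1 lower at 14 than at 3 dpi (8.33% and 5.27%), and the signs of C4b and C5ar1 turned with each library clustered alone.

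In monocytes the C1q genes of 7 members were lower in the standard than in the ActD sham and none was higher (17.4% and 6.01%). Monocytes of the standard sham held 936 CPM of C1q, below the 2806 CPM of B cells there. C1q UMIs per microglia marker UMI were 1.27 in monocytes of the standard sham and 1.21 in those of the ActD sham, against 1.61 and 0.991 in microglia. C1q in monocytes of the shams could thus not be told from background. At 14 dpi C3ar1 of 9 members was higher and C1qc and Cfb lower than in the ActD sham (4.86% and 8.80%), which has 28 monocytes. From 3 to 14 dpi C3 and Cfb were higher and C1qb, C3ar1 and C5ar1 lower (17.6% and 9.34%). Myeloid progenitors, of which the ActD sham had 27 cells, had C3ar1 and C5ar1 of 8 members higher and C1qc and C4b lower in the standard sham (8.10% and 9.76%), and C3, C3ar1 and C5ar1 higher and C4b lower at 14 dpi (6.75% and 7.75%). C1q in progenitors of the standard sham, at 507 CPM, was also below that of B cells, so C1qc there could not be told from background. C3ar1 in these progenitors measured 8.33 CPM, against 46.9 in B cells of that library. C5ar1 measured 24.3 CPM, against 22.8 in B cells, with overlapping intervals. Neither receptor could be told from background there. In neutrophils C3ar1 of 7 members was higher in the standard sham and none lower (17.5% and 10.1%), and from 3 to 14 dpi the C1q genes, C4b and C3ar1 of 8 members were lower and none higher, where 55.4% of all genes were lower and 5.79% higher. With TMM factors C4b (-2.03) and C3ar1 (-2.93) stayed lower, the C1q genes gave -0.02, -0.45 and -0.10, and C3 (1.66) and Itgam (1.55) were higher. C1q in these neutrophils, and C3ar1 in neutrophils of every library, were not told from background.

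Of 39 other genes of the cascade, 38 were in the matrices, and 22 of them passed a fold of 2 in microglia, macrophages or neutrophils or reached 100 CPM in some class. The share of all genes that met this rule was not counted. Cfp, properdin, which stabilizes the alternative convertase, measured 1.74, 0.723, 60.2 and 3.24 CPM in microglia. The microglia of 3 dpi, where it was highest, held 6795 CPM of the macrophage markers, against 76.3 CPM in the ActD sham, and macrophages of 3 dpi held 223 CPM of Cfp. Cd93, a receptor of phagocytes, showed the same order in microglia with 1.196, 0.301, 44.3 and 2.13 CPM, and 281 CPM in macrophages of 3 dpi. C5ar2, the second C5a receptor, was highest in microglia of the ActD sham (69.9 CPM, against 29.7, 16.4 and 18.4 CPM).

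The integrin chain Itgax (CD11c), the alpha chain of CR4, was higher in microglia at 14 dpi than in the other libraries. It measured 8.58, 11.6, 8.05 and 92.8 CPM, a log2 ratio of 2.99 (2.79 to 3.21) to the ActD sham. Itgb2, the beta chain of both CR3 and CR4, differed less in microglia with 239, 340, 255 and 325 CPM. In all, 18 of the 38 genes had 20 UMIs in microglia at 14 dpi and the ActD sham. Higher by more than 2-fold at 14 dpi were C2, Cfp, Fcnb, Cd59a, Itgax and Cd93, against 8.0% of all genes. Among those lower were Masp2, Cd46, C5ar2 and Vtn, against 18% of all genes. With TMM factors 6 were higher and 3 lower by as much, where 6 and 5 were found without. Of 15 genes at 3 dpi, Cfp, Fcna, Cd59a and Cd93 were higher, and Cd46 and C5ar2 were among those lower (15.2% and 32.7% of all genes). In the standard sham Cfp, Fcnb, Cd55 and Cd93 were higher and Masp1, Cd46, C5ar2 and Clu lower (7.16% and 21.9% of all genes). Fcnb in microglia had log2 ratios to the ActD sham of 3.43 (standard sham) and 3.70 (14 dpi), and in neutrophils 6.52 and 6.87. It reached 627 CPM in myeloid progenitors of 14 dpi. Whether Fcnb in microglia is background was not tested. C2, which with C4 forms the classical convertase, reached 45.2 CPM in border macrophages of the ActD sham and 0.968 CPM in microglia of 14 dpi.

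In macrophages 20 of the genes had 20 UMIs. From 3 to 14 dpi C2, Masp1, Cd55 and Itgax were among those higher, and C1ra, Cfp, Fcna, Vsig4 and Cd93 were lower (15.9% and 11.6% of all genes). Vsig4 rests on 30 UMIs at 3 dpi and 0 at 14 dpi, where 3 counts would be as high as its level at 3 dpi. Itgax went from 13.9 to 110 CPM, while Cfp went from 223 to 17.1 CPM. From 3 to 14 dpi the log2 ratio of Itgax was 2.99 in macrophages and 3.52 in microglia. In neutrophils of 3 dpi Cd46, C5ar2, Itgax, Clu, Cd93 and C1qbp of 11 genes were higher than in the ActD sham and Cd55 was among those lower, where 48.5% of all genes were higher and 7.45% lower. Of these, C5ar2 (0.53) and C1qbp (0.63) fell short of 2-fold with TMM factors. Cd46, Itgax and Clu had 0 UMIs in the ActD sham, where 3 counts would be 4.97 CPM, against 7.12, 45.6 and 5.56 CPM at 3 dpi, so that a difference of 2-fold is not shown for Cd46 and Clu. At 14 dpi Fcnb, Itgax and Cd93 of 10 genes were higher in neutrophils than in the ActD sham, where 10.1% of all genes were higher and 12.2% lower. Fcnb, ficolin B of the lectin route, had 0 UMIs in neutrophils of the ActD sham, which allows up to 4.97 CPM, and 96.8 CPM at 14 dpi, and reached 627 CPM in myeloid progenitors. Outside these classes, endothelial cells of 14 dpi held 1133 CPM of Vtn, 593 of Serping1, the C1 inhibitor, 126 of Cr1l and 114 of C6.

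Over the 30 sums of class and library with at least 50 cells, the gene most like C1qa, C1qb and C1qc was Ang (Pearson r of log2 CPM 0.972, 0.977 and 0.976), with Fcrls and Hpgds among the others. C3 was most like Hp, which encodes haptoglobin (r = 0.914), C4b most like Cp, which encodes ceruloplasmin (0.875), and Cfb most like Zfyve9 (0.751). C3ar1 was most like Abcc3 (0.956), C5ar1 most like Rbm47 (0.907) and Ptafr, the receptor of platelet-activating factor (0.895), and Itgam most like Clec5a (0.890). Among the members C1qa and C1qc had an r of 0.997, C1qb and C3ar1 0.903, and C1qa and C3 -0.260. The sums share libraries and depth, so these values are descriptions of likeness.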

How the data were processed

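CD45+ cells of the spinal cord were read with the 10x Chromium 3′ method in 4 libraries, 1 per condition. The files the authors deposited hold, for each library, UMI counts by gene and barcode that were not normalized. The submitters' processing notes name Cell Ranger and mm10, and the matrix headers carry software version 3.0.1 (standard sham and 3 dpi) or 3.1.0 (ActD sham and 14 dpi). Barcodes numbered 6827, 2439, 10763 and 11631 for the sham made by standard dissociation, the sham with ActD and the SCI libraries of 3 and 14 dpi, in this order, with 60412094, 27447471, 125270696 and 129935880 UMIs. The label of the standard sham names no protocol, which was taken from the methods.

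Following the methods, cells needed at least 600 genes and a mitochondrial share of at most 10%, and those with UMIs of Itgam and of a lymphocyte gene such as Cd3e or Klrb1c (410, 26, 540 and 870 cells) were taken out. Doublets were scored with Scrublet in scanpy 1.11.5 in place of DoubletFinder and removed at 0.8% per 1000 cells (227, 38, 646 and 801 cells), which left 5099, 2139, 8342 and 9208 cells. Counts were scaled to 10000 UMIs per cell, integrated in Seurat 5.3.0 (2000 features, without the members and the other genes of the cascade) and clustered at resolution 0.6. Each cluster was named per library from marker lists, with at least 20 cells and 3 markers in 25% of its cells. The members, gene lists and markers were chosen with earlier results of these data known, and the cell and marker minimums for naming were chosen with the clusters in view.

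Levels are CPM of the UMI sum of a class in a library. Log2 ratios have 0.5 UMIs added to each sum and are given where the pair held 20 UMIs or more. With no replicates there is no test, and a fold of 2 marks genes. Where a count was 0, the limit is 3 counts. Shares were taken after each cell was thinned to 1000 UMIs, leaving out shallower cells. TMM factors came from edgeR 4.0.16. Likeness is Pearson's r of log2(CPM + 1) over sums with at least 50 cells, for genes with at least 1000 UMIs, and the 5 highest were kept for each member. Other genes of the cascade were named where they passed a fold of 2 in microglia, macrophages or neutrophils, or 100 CPM in a class (22 genes), and some genes that met these rules are not reported here. Of 31053 gene identifiers, 31011 were found in GENCODE M21, which gave the coordinates. RefSeq promoters were found for 6 of the 9 members, and the 2 shown overlap no annotated transcript. The interval code was tested on simulated data.

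Alternatives were each library clustered alone, resolution 1.2, a stricter (1000 genes, 5%) and a looser filter (200 genes, 20%), co-expressing cells or doublets kept, TMM factors, the mean over cells, shares at 500 UMIs or not thinned, log2(CPM + 10), and 100 UMIs or no minimum. Taking only the neutrophil cluster common to all 4 libraries was chosen after seeing the data.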

Additional observations from a re-analysis of the deposited data

Results flagged for a closer look

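For the members named here cell classes differed in direction between the same 2 libraries. The share of all genes that did so was not counted, so this is no trait of the members. With 1 library per condition none of these differences was tested. From 3 to 14 dpi C1qa was higher in macrophages (log2 ratio 1.98) and lower in neutrophils (-1.13), a difference of 3.104. C1qc gave 2.03 and -1.22 in the same classes, a difference of 3.25. C1qb gave 1.02 in border macrophages and -1.56 in neutrophils, a difference of 2.58. With doublets kept, the neutrophil ratios of all 3 C1q genes turned to 0.87, 0.27 and 0.76 for C1qa, C1qb and C1qc, and with TMM factors they were -0.02, -0.45 and -0.10. B cells gave -0.91, -1.57 and -1.26, and C1q in neutrophils and B cells was read as background, so these are no differences in neutrophil expression. C4b was higher at 14 than at 3 dpi in border macrophages (2.29) and lower in neutrophils (-3.14, from 10 against 53 UMIs), a difference of 5.43.

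Against the ActD sham, C3 at 3 dpi was higher in border macrophages (2.44, from 85 against 2 UMIs) and lower in monocytes (-1.50), a difference of 3.93. Itgam at 3 dpi was higher in border macrophages (1.27) and lower in microglia (-1.37), a difference of 2.63. C5ar1 at 14 dpi was higher in myeloid progenitors (1.87, from 334 against 14 UMIs) and lower in border macrophages (-1.15), a difference of 3.02. The progenitors of the ActD sham held 1077 CPM of neutrophil markers and those of 14 dpi 112706 CPM, whose part was not tested.

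Cells of the ActD sham without a name, led by the granule gene Camp, held C3 at 481 CPM (441 to 524, from 529 UMIs in 47 cells) and entered no comparison between libraries.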

How the results depend on the processing

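No paired analysis was possible because each condition is 1 library and no replicate numbers are shared. The C3 ratio of 14 dpi to the ActD sham in microglia lay between 4.63 and 5.33 in the 8 alternatives run for it. The C1q ratio of 3 dpi to the ActD sham in microglia, -0.67, was -0.17 with TMM factors, -0.63 with each library clustered alone and at resolution 1.2, -0.73 with the stricter filter, -0.69 with co-expressing cells kept, -0.75 with doublets kept and -0.66 as a mean over cells. C1q in microglia of the ActD sham, 25644 CPM, was 25498 CPM with the library clustered alone and 25542 CPM with the looser filter. The share of microglia of 14 dpi with a C3 UMI, 4.24%, was 2.64% at 500 UMIs and 33.3% without thinning. Microglia held 22.2% of the C3 UMIs of 14 dpi and 15.4% with the library clustered alone. The 11 other genes of the cascade past a fold of 2 in microglia at 14 dpi were 5 where 100 UMIs were asked for. Of the 5 genes most like C3, 3 remained with log2(CPM + 10).

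Ratios turned sign in neutrophils for 14 dpi over the ActD sham. With each library clustered alone C1qa gave 0.45, C1qb 0.28, C1qc 0.11, their sum 0.30 and C3 -0.26, and with doublets kept C1qa gave 0.91, C1qb 0.61, C1qc 0.62 and the sum 0.73. For 14 over 3 dpi with doublets kept, C1qa gave 0.87, C1qb 0.27, C1qc 0.76 and the sum 0.61. With each library clustered alone, C3 in border macrophages of 3 dpi over the ActD sham gave -0.18, and in dendritic cells of 14 over 3 dpi C4b gave 3.80 and C5ar1 0.28. The cause was not tested.

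In the myeloid classes 67 member ratios were past a fold of 2, and ratios of B, T and NK cells were left out of this count. The same direction past that fold was found for 55 with TMM factors, 57 with co-expressing cells kept and 50 with doublets kept. It was found for 61 as a mean over cells, 64 at resolution 1.2 and all 67 with the looser and the stricter filter. With each library clustered alone it was found for 39 of 49. With the neutrophil cluster common to all libraries, which was chosen after seeing the data, it was found for 8 of 11. Cfb, with 3 to 100 UMIs in a library, was limited by depth.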

Other observations

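Cells outside the classes compared also held members of the cascade. In the ActD sham, 29 cells without a name led by Vtn held C4b at 251 CPM (203 to 307) and 48 cells led by H2-Eb1 held 160 CPM (130 to 195), against 904 CPM in border macrophages of that library. Plasmacytoid dendritic cells, named in the standard sham with 112 cells, held C3 at 27.7 CPM (19.4 to 38.4). At 3 dpi, 46 cells with fibroblast markers held C4b at 60.6 CPM (47.3 to 76.6) and C3 at 35.5 CPM (25.5 to 48.2). The 53 endothelial cells of 14 dpi held C3 at 147 CPM (116 to 185).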
